A study of Mus musculus with 47 samples.

Results

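The 9 genes described here, of lipid mediator and carbonyl metabolism, were followed through a differentiation series of mouse C2C12 cells: *Alox5*, the prostaglandin pathway genes *Pla2g4a*, *Ptgs1*, *Ptgs2*, *Ptges* and *Ptgis*, and the aldo-keto reductases *Akr1b3*, *Akr1b7* and *Akr1b8*. The members were taken by gene symbol, with the transcripts of each gene summed, and all 9 were found among the 45706 genes of the files. The list was chosen by measured values of these files: *Alox5* and *Akr1b7* were selected on their falls with dox at 48 and 120 h, that of *Akr1b7* lying at 120 h, and the other members were chosen as genes of the same pathway or family. For that reason the values of these 2 genes in every comparison that uses libraries of 48 or 120 h, the fractions and the iCdh23 and iMcam lines included, are given as a description with no test. C2C12 is an immortalized line of mouse skeletal myoblasts that withdraws from the cell cycle and fuses into multinucleated myotubes when serum is removed. The iMyoD1 line carries endogenous MyoD1 plus a dox-inducible Halo-MyoD1 transgene, and the iCdh23 and iMcam lines carry an inducible Cdh23 or Mcam, each driven by a doxycycline-responsive promoter on a PiggyBac vector. Doxycycline (dox) or vehicle was given for 24 h in growth medium (0 h), for the first 24 h of serum starvation, for 48 h, or for 120 h. At 120 h the iMyoD1 cultures were also passed through a 40 µm filter into a myoblast-enriched and a myotube-enriched fraction, and iCdh23 and iMcam were sampled at 48 h. Each of the 16 groups held 3 libraries except the myoblast-enriched dox group, which held the 2 libraries numbered 2 and 3.

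Cytosolic phospholipase A2, encoded by *Pla2g4a*, frees arachidonic acid from membranes. The cyclooxygenases COX-1 (*Ptgs1*, usually constitutive) and COX-2 (*Ptgs2*, inducible by growth factors and stress) turn it into prostaglandin H2, from which *Ptges* makes prostaglandin E2 and *Ptgis* makes prostacyclin. 5-Lipoxygenase, encoded by *Alox5* and best known from leukocytes, takes the same arachidonic acid toward leukotrienes. *Akr1b3* encodes aldose reductase, which reduces glucose to sorbitol, and *Akr1b7* and *Akr1b8* encode close relatives that reduce lipid aldehydes. Prostaglandins are known to act on myoblast growth and fusion. In muscle nuclei MyoD1 binds E-boxes, hexamers of the form CANNTG, with CAGCTG as its preferred form.

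The 250 bases before the RefSeq start (GRCm38.p6) are shown for the 3 members on which the results turn, in the direction of the gene, with CANNTG hexamers in capitals. They lie at chr6:116461179-116461428 on the minus strand for *Alox5*, at chr1:150099781-150100030 on the plus strand for *Ptgs2*, and at chr6:34412112-34412361 on the plus strand for *Akr1b7*.
Alox5: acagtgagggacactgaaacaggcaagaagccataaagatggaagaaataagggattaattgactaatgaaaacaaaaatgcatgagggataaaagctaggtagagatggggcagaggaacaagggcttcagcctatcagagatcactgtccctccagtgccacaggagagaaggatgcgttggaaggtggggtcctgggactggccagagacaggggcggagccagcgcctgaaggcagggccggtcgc
Ptgs2: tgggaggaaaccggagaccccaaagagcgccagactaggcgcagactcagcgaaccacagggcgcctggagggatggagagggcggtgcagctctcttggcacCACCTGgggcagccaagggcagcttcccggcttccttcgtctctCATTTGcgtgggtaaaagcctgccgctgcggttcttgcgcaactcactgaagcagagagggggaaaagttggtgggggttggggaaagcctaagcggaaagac
Akr1b7: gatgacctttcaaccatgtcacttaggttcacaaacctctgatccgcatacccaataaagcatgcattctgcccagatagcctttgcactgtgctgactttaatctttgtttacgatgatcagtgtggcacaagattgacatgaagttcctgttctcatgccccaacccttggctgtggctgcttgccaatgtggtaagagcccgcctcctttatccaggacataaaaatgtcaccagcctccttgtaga
The search covered both strands from 250 bases before to 50 bases after each start, and it found no CANNTG for *Alox5*. For *Ptgs2* it found CACCTG at -147, CATTTG at -103 and CACGTG at 17, counted from the start, and for *Akr1b7* it found CATCTG at 15. CANNTG was present in 72.3% of the 32851 promoter windows of this length and CAGCTG in 16.3%. None of the 8 windows of the 7 members with an entry (*Ptgis* and *Akr1b3* had none) held CAGCTG, and a hexamer match describes letters only. *Akr1b3*, *Akr1b8* and *Akr1b7* lie beside each other on chromosome 6 of GRCm38, between 34302434 and 34423142, and *Alox5* lies on the same chromosome between 116410077 and 116461178. Because *Akr1b7* and *Akr1b8* are similar in sequence, the split of reads between them rests on the authors' transcript assignment.

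The libraries held 15066338 to 50950674 estimated counts. Levels are given as CPM with TMM factors over all 47 libraries. The 0 and 24 h libraries, the 48 and 120 h whole cultures, and the remaining libraries lie in 3 deposited tables, and the labels tag all but the 0 and 24 h libraries as batch RNAseq_v2, so that the step from 24 to 48 h and the batch cannot be told apart. The induced genes were read at their annotated loci. *Mcam* stood at 17.1 to 19.8 CPM with vehicle and 69.0 to 74.7 with dox in iMcam, whereas *Cdh23* in iCdh23 stood at 348 to 451 and 426 to 568 CPM, which overlap. Each also stood higher with dox in the other line, *Mcam* in iCdh23 at 45.7 to 54.6 CPM against 4.77 to 7.57 and *Cdh23* in iMcam at 44.0 to 57.2 against 5.61 to 8.86. *Myod1* in iMyoD1 stood at 171 to 181 CPM with vehicle and 178 to 197 with dox at 0 h and was lower with dox at 48 h (295 to 323 against 382 to 391) and 120 h (82.3 to 97.9 against 231 to 305), and whether these counts hold the reads of the transgene is not given in the sources used here, so they do not check the labels. No dox-treated line without an inducible gene was analysed here, so dox and the induced gene cannot be told apart. In the fractions, 2 libraries went against their labels. The myotube-enriched library labelled vehicle replicate 2 held *Susd2*, a gene raised by dox in the other fraction libraries, at 9.65 CPM, against 0.631 and 1.19 in the other vehicle libraries, and the one labelled dox replicate 2 held it at 1.11 CPM, against 10.8 and 9.80. *Slc17a7*, *Cadm4*, *Mcam*, *Adgrg1* and *Myog* were placed the same way. The vehicle libraries labelled replicate 3 of iCdh23 and iMcam also stood apart from the other vehicle libraries of their lines for *Alox5* and *Ptgs2*. The labels call the replicates biological without saying that they were separate cultures, so p-values measure the spread between these libraries.

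The cultures carried muscle markers and also *Col1a1*, *Dcn* and *Pdgfra* of the fibroblast list. The 10 myoblast and myotube markers (*Myod1*, *Myog*, *Ttn* and others) all averaged at least 1 CPM in every group from 48 h on. *Ptprc*, the pan-leukocyte antigen, averaged at most 0.0791 CPM in any group, *Cd3e* was at 0 in all 47 libraries, and the 10 leukocyte markers together stayed between 1.82 and 18.0 CPM, of which *Csf1r*, *Itgb2* and *Itgam* reached group means of 5.64, 6.41 and 4.14. Of the 6 adipocyte markers, *Adipoq*, *Plin1*, *Lep* and *Fabp4* stayed at group means of at most 0.146 CPM, while the transcription factors *Cebpa* (9.09 to 57.8) and *Pparg* (1.45 to 16.8) were present in every group, and the list summed to at most 78.4 CPM in any library. The 3 endothelial markers summed to at most 0.929 CPM. Of the 4 fibroblast markers, the collagen gene *Col1a1* reached a group mean of 1121 CPM, *Dcn* 177 and *Pdgfra* 36.1, while *Thy1* stayed at or below 0.219.

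Marker levels moved with dox in some of the comparisons. Of the 10 muscle markers, 5 were called lower at 48 h and 3 at 120 h in iMyoD1, all 10 in iCdh23 and 9 in iMcam. At 24 h, where 2 members were called lower, 1 muscle marker was called higher and 1 lower, with sums of 434 to 436 CPM with dox and 372 to 391 with vehicle, and at 0 h 3 of 7 tested were called higher. The summed muscle level was 6359 to 6569 CPM with dox and 13902 to 15351 with vehicle in iMyoD1 at 48 h, and 332 to 465 against 6599 to 10371 in iCdh23. In iMcam the sums were 926 to 2236 with dox and 4983 to 11090.5 with vehicle. All 3 proliferation markers were called lower with dox in iMyoD1 at 48 h (sums of 226 to 246 against 771 to 789 CPM), in iCdh23 (10.6 to 22.9 against 506 to 784) and in iMcam (44.2 to 91.6 against 488 to 609). At 120 h in iMyoD1 1 of them was called higher (sums of 332 to 396 against 168 to 196 CPM), and at 0 and 24 h 0 of 3 were called. The fibroblast markers summed to 40.9 to 63.5 CPM with dox and 316 to 830.0 with vehicle in iCdh23, where all 3 tested were called lower, to 126 to 155 against 437 to 1109 in iMcam, and to 247 to 273 against 974 to 1077 in iMyoD1 at 48 h, where *Col1a1* alone was called lower in each. At 120 h *Col1a1* was called lower in the whole cultures (fibroblast sums of 253 to 318 against 437 to 969 CPM), and *Col1a1* and *Pdgfra* in the myoblast-enriched fraction (513 to 558 against 1146 to 1562). The adipocyte list held *Pparg* and *Cebpa* called lower in iCdh23 (sums of 12.8 to 18.2 against 43.0 to 46.7 CPM) and *Pparg* at 120 h (15.3 to 18.3 against 20.0 to 20.7). Of 4 leukocyte markers tested at 120 h, *Lyz2* and *Itgam* were called higher and *Itgb2* lower (sums of 5.57 to 8.34 against 8.09 to 9.21 CPM). The part of these markers in the members' differences was not tested. In bulk RNA, fewer cells of a type and less RNA per cell cannot be told apart.

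**Figure D1:**
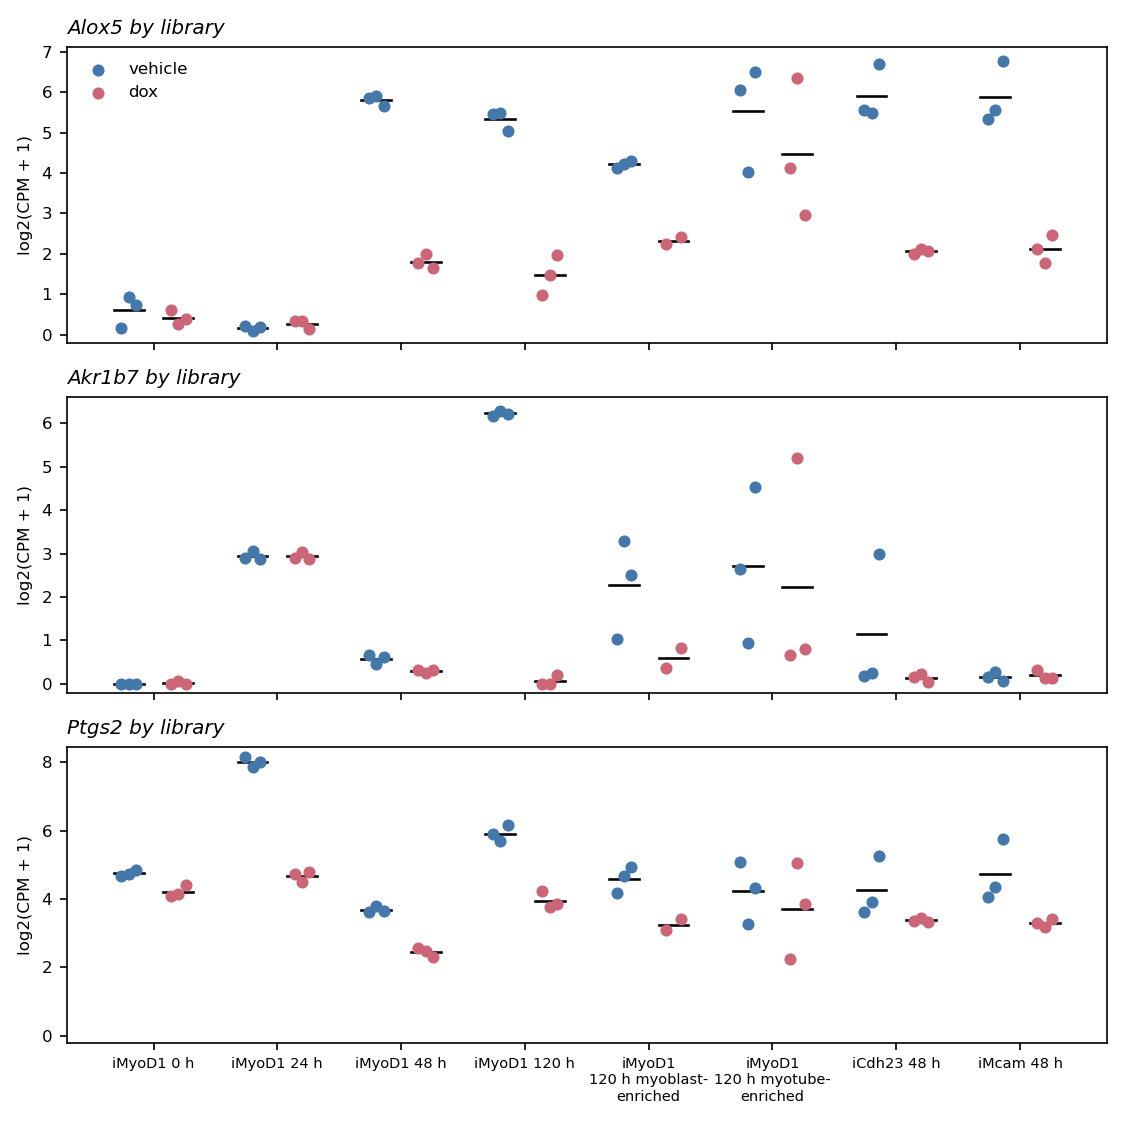
*Alox5*, *Akr1b7* and *Ptgs2* in each library (points) and the group mean of the plotted values (black bars), as log2(CPM + 1), by line, time and fraction. The dox libraries lie below the vehicle libraries for *Alox5* at 48 and 120 h and for *Ptgs2* at every time of the whole cultures, and the myotube-enriched libraries overlap.

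A gene was called at an adjusted p under 0.05 (edgeR's quasi-likelihood test, Benjamini-Hochberg over all genes tested) and a difference of more than 2-fold. In iMyoD1 at 0 h, 0 of 8 members tested were called, against 4.27% of all genes, while 2 had an adjusted p under 0.05, against 37.8% of genes, and DESeq2 also called 0. At 24 h, 2 of 8 members were called, both lower, where 5.13% of genes were called lower and 13.1% in either direction. At 48 h, 1 was called higher and 1 lower of 7, against 14.4% in either direction. At 120 h 3 of 6 were called, all lower, where 8.80% of genes were called lower and 16.1% in either direction. In iCdh23 1 of 7 was called higher and 5 lower, against 17.0% of genes lower and 30.0% in either direction. In iMcam 3 of 7 were called, all lower, against 9.85% of genes lower and 16.8% in either direction. The median log2 fold change of the members tested was -0.39 at 24 h, -0.49 at 48 h, -1.02 at 120 h, -1.15 in iCdh23 and -0.85 in iMcam, beside medians over all genes between 0.00 and 0.02 in size. *Alox5* and *Akr1b7* are in none of these counts from 48 h on. The member called higher at 48 h and in iCdh23 was *Ptges*, which passed the low-count filter there only through the dox libraries.

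**Figure D2:**
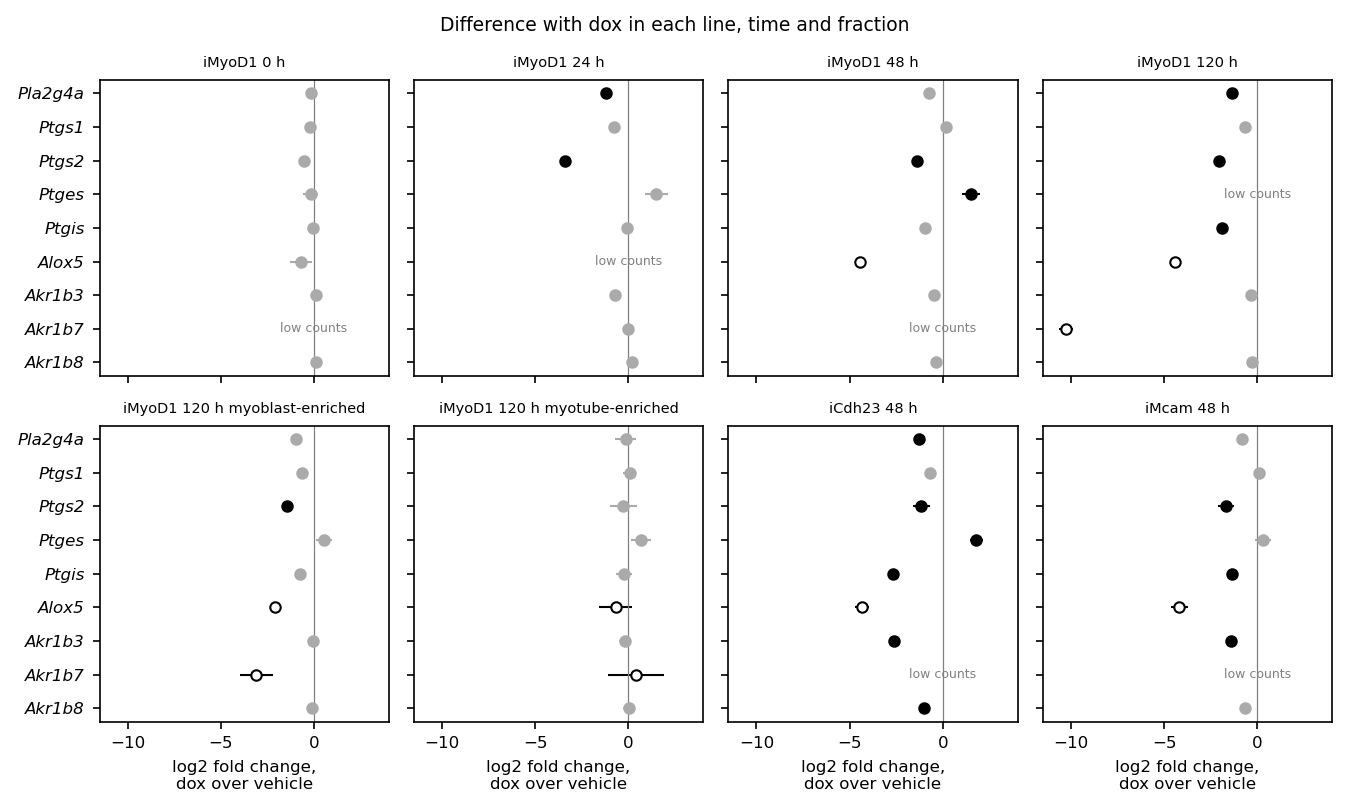
Log2 fold change with dox over vehicle for each member (points, with the standard error as bars) in the 8 dox comparisons. Black points were called, grey points were tested and not called, open points are descriptions of the contrasts that chose the gene, and members filtered for low counts have no point. The open point of *Akr1b7* at 120 h, -10.27, rests on 4 counts in the dox group and depends on the prior count.

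The order of the members per transcript length was led by *Akr1b3*. In iMyoD1 vehicle cultures at 48 h it stood at 939 ± 46.8 TPM (SD, n = 3). *Akr1b8* followed at 160.0 and *Ptgis* at 147, then *Ptgs1* at 65.8 and *Alox5* at 31.6. *Pla2g4a* (8.22), *Ptgs2* (4.36), *Akr1b7* (0.636) and *Ptges* (0.301) were the lowest. At 24 h the order differed, with *Ptgs2* at 91.9 ± 13.3 TPM, above *Ptgs1* at 50.3 ± 5.21, and *Alox5* at 0.108. At 120 h *Akr1b7* reached 109 ± 3.99 TPM.

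**Figure D3:**
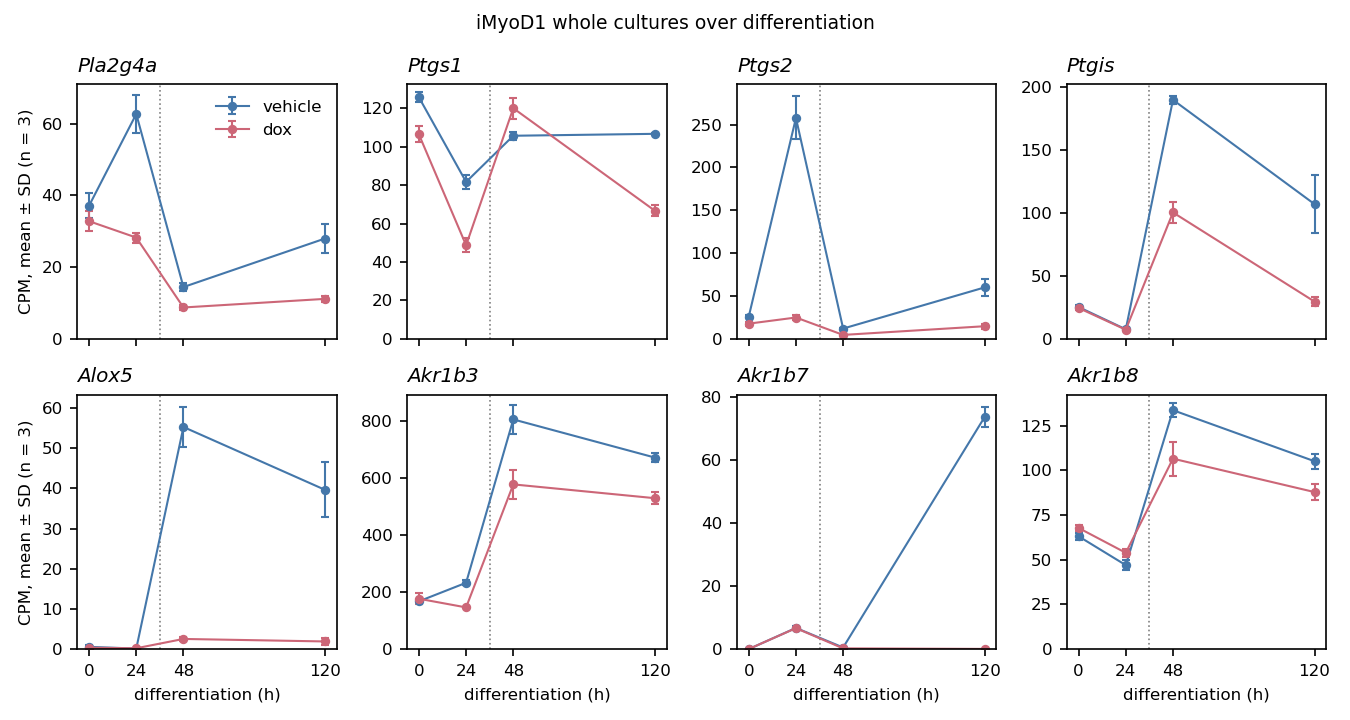
Mean CPM ± SD (n = 3) of 8 members in iMyoD1 whole cultures over hours of differentiation, with vehicle in blue and dox in red. The dotted line parts the batches. *Ptgs2* was highest at 24 h with vehicle (258 CPM) and with dox (24.8 CPM), and *Akr1b7* reached 73.8 CPM at 120 h with vehicle, where the 3 dox libraries held 4 counts in all.

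*Pla2g4a*, the source of free arachidonic acid, was higher at 24 h than at 0 h with vehicle and lower with dox at 24 h. Its libraries read 33.2, 38.2 and 40.0 CPM at 0 h with vehicle and 68.7, 60.4 and 59.0 at 24 h, with no overlap (log2 fold change 0.79 ± 0.08 SE, adjusted p = 6.7e-07, less than 2-fold). With dox at 24 h they read 27.8, 29.8 and 27.1, all below vehicle (-1.18 ± 0.07, adjusted p = 4.0e-08), whereas at 0 h the groups overlapped and the difference of -0.17 missed the threshold (adjusted p = 0.12). It was also lower with dox at 120 h, at 11.8, 10.2 and 11.4 CPM against 25.1, 26.1 and 32.7 (-1.34 ± 0.15, adjusted p = 1.0e-04). The 48 h difference of -0.74 (adjusted p = 1.2e-04) was under 2-fold, on lower vehicle levels of 13.1 to 15.2 CPM. In iCdh23 it fell from 24.2, 25.1 and 29.5 to 9.55, 12.5 and 10.4 CPM (-1.28 ± 0.13, adjusted p = 1.4e-04). In iMcam it was also lower with dox, at 11.7 against 21.8 CPM on average (-0.85 ± 0.11, adjusted p = 9.1e-04, under 2-fold), with no overlap.

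*Ptgs2* (COX-2) without dox was highest at 24 h of differentiation among the 4 times, with a change of batch between 24 and 48 h. It read 24.6, 25.4 and 27.9 CPM at 0 h with vehicle and 284, 234 and 255 CPM at 24 h, about 10.1-fold higher (3.34 ± 0.08, adjusted p = 5.0e-13). By 48 h it stood at 11.4, 12.8 and 11.6 CPM, and at 120 h at 59.0, 50.5 and 70.4 CPM. The rise from 48 to 120 h, within 1 table, was 5.08-fold (2.35 ± 0.14, adjusted p = 1.5e-06). No 2 of these 4 vehicle groups overlapped in neighbouring times.

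With dox in iMyoD1, *Ptgs2* stayed near its 0 h level at 24 h. The dox libraries at 24 h read 25.8, 21.8 and 26.9 CPM, 10.5-fold below vehicle (-3.39 ± 0.09, adjusted p = 1.1e-10), and between 0 and 24 h with dox the gene rose by 0.51 ± 0.10 on the log2 scale (adjusted p = 4.6e-04). At 0 h it was already lower with dox, at 15.9, 16.8 and 20.3 CPM (-0.55 ± 0.10, adjusted p = 4.7e-04), under 2-fold. The dox effect at 24 h exceeded that at 0 h by -2.88 ± 0.14 (interaction test, adjusted p = 1.4e-10). The dox libraries stayed below all vehicle libraries at 48 h, at 4.98, 4.62 and 3.98 CPM (-1.40 ± 0.12, adjusted p = 3.9e-06), and at 120 h, at 18.0, 12.5 and 13.5 CPM (-2.04 ± 0.17, adjusted p = 2.3e-05). It was lower with dox at all 4 times, and called at 3 of them.

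*Ptgs1* (COX-1) differed less between dox and vehicle. It read 123 to 128 CPM at 0 h with vehicle, 77.5 to 84.7 at 24 h, 104 to 108 at 48 h and 106 to 107 at 120 h. With dox it was lower at 24 h, at 48.4, 45.2 and 52.4 CPM (-0.77 ± 0.06, adjusted p = 4.5e-07), and at 120 h, at 69.8, 66.4 and 63.8 CPM (-0.69 ± 0.08, adjusted p = 1.7e-04). At 48 h it was slightly higher, at 119, 126 and 115 CPM (0.16 ± 0.06, adjusted p = 0.034). At 0 h it was lower with dox too (-0.23 ± 0.05, adjusted p = 0.0036), with no overlap. None of these dox differences passed 2-fold, and the direction at 48 h is the opposite of that at 0, 24 and 120 h. Over time with dox it was called lower from 0 to 24 h (-1.12 ± 0.06, adjusted p = 2.1e-09). It was called higher from 24 to 48 h (1.27 ± 0.07, adjusted p = 3.9e-08), where the batch changes.

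Of the terminal synthases, *Ptgis* (prostacyclin) was abundant from 48 h, where the batch also changes, and *Ptges* (prostaglandin E2) stayed near the limit of counting. *Ptgis* read 23.3 to 26.5 CPM at 0 h with vehicle and 6.10 to 8.38 at 24 h (-1.71 ± 0.12, adjusted p = 1.6e-08), with values at both times that overlapped those with dox. At 48 h it stood at 193, 188 and 188 CPM with vehicle and 90.9, 105 and 105 with dox (-0.94 ± 0.07, adjusted p = 1.2e-06, under 2-fold). At 120 h it stood at 122, 118 and 80.7 CPM with vehicle and 25.5, 32.9 and 30.2 with dox (-1.87 ± 0.17, adjusted p = 3.2e-05). The groups did not overlap at either time. *Ptges* did not exceed 1.67 CPM in any library. It was called higher with dox at 48 h (0.603 against 0.196 CPM, 1.50 ± 0.50), on 13 to 27 counts a library against 1 to 8. DESeq2 did not make that call, and it was lost without vehicle replicate 1 or 2. In iCdh23 it was also called higher (1.00 against 0.286 CPM, 1.79 ± 0.34). In both comparisons it passed the low-count filter only through the dox libraries, where it is higher, so these calls are given as a description.

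*Alox5* was near absent until 24 h and present from 48 h, a step at which the batch also changes. It read 0.120 to 0.900 CPM at 0 h with vehicle and 0.0709 to 0.162 at 24 h, which is 2 to 4 counts a library, and the dox values at both times overlapped them (0 h: -0.70 ± 0.58, adjusted p = 0.37; at 24 h it was filtered for low counts). At 48 h the vehicle libraries read 56.7, 59.4 and 49.7 CPM and the dox libraries 2.43, 2.98 and 2.16, a 21.6-fold difference. At 120 h they read 43.3, 43.9 and 31.7 against 0.988, 1.80 and 2.91 CPM, 21.0-fold apart. The groups lay far apart at both times, as the choice of the gene requires. The dox cultures still held more *Alox5* at 48 h than any 24 h library. The transcript ENSMUST00000026795 (2821 bases) carried 93.8% of the gene's counts, and 42.42% in the 120 h dox libraries, where few counts were left.

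*Alox5* was also lower with dox in the 2 adhesion lines at 48 h, given as a description because the choice of the gene did not name a line. In iCdh23 it read 46.4, 43.6 and 103 CPM with vehicle and 3.00, 3.38 and 3.21 with dox, 20.2-fold lower (-4.33 ± 0.38). In iMcam it read 39.2, 46.1 and 109.6 CPM with vehicle and 3.38, 2.39 and 4.56 with dox, 18.3-fold lower (-4.19 ± 0.46). The dox libraries lay below every vehicle library in both lines. Without the vehicle library labelled replicate 3, which read highest in each, the differences were -3.82 and -3.59. The dox effects of the 2 lines differed by -0.12 ± 0.63, an estimate too wide to show that they were alike.

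*Akr1b3*, the aldose reductase, was the member with the highest level per transcript length in the vehicle cultures at 48 h. It read 162 to 173 CPM at 0 h with vehicle, 224 to 241 at 24 h, 772 to 863 at 48 h and 653 to 682 at 120 h. With dox in iMyoD1 it was lower at 24 h, at 147, 143 and 148 CPM (-0.70 ± 0.05, adjusted p = 2.5e-07), at 48 h, at 522, 618 and 591 (-0.49 ± 0.08, adjusted p = 3.4e-04), and at 120 h, at 505, 544 and 537 (-0.36 ± 0.08, adjusted p = 0.0046), none by 2-fold. In iCdh23 the fall was larger, from 505, 628 and 457 to 77.6, 82.9 and 97.1 CPM (-2.63 ± 0.15, adjusted p = 1.1e-05), and in iMcam from 333, 385 and 371 to 125, 119.5 and 157 CPM (-1.40 ± 0.13, adjusted p = 2.6e-04). The groups did not overlap in any of these comparisons. *Akr1b8* was slightly higher with dox at 24 h (51.4 to 55.5 against 43.7 to 48.7 CPM, 0.17 ± 0.06, adjusted p = 0.035) and lower at 48 h (-0.35 ± 0.08, adjusted p = 0.0027) and 120 h (-0.27 ± 0.08, adjusted p = 0.025), all under 2-fold. In iCdh23 it read 91.7, 101 and 90.9 CPM with vehicle and 42.1 to 50.5 with dox (-1.03 ± 0.09, adjusted p = 6.3e-05), a call that ended below 2-fold without dox replicate 3 (-0.96) or vehicle replicate 2 (-0.99), and in iMcam -0.66 ± 0.08 (adjusted p = 8.6e-04).

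*Akr1b7* without dox was higher at 24 h than at 0 or 48 h and highest at 120 h, and the batch changes between 24 and 48 h. It had no count in the 0 h vehicle libraries and read 6.50, 7.31 and 6.34 CPM at 24 h, at least 42.1-fold higher against a floor of 3 counts per library. It passed the low-count filter only through the 24 h libraries, so this rise is given as a description with no test. Dox at 24 h left the level at 6.44, 7.25 and 6.28 CPM (-0.04 ± 0.11, adjusted p = 0.75), the groups overlapping, and under plain CPM scaling the sign was the other way. At 48 h the vehicle libraries read 0.594, 0.375 and 0.536 CPM and the dox libraries 0.240, 0.182 and 0.246, on 5 to 12 counts each, and the gene was filtered for low counts. At 120 h the vehicle libraries read 70.7, 77.1 and 73.6. With dox at 120 h 2 libraries held no count and the third 0.161 CPM (4 counts). In iCdh23 the vehicle library labelled replicate 3 read 6.94 CPM and stood apart from the other 2 (0.133 and 0.194), and the dox libraries read 0.0357 to 0.165. All iMcam libraries lay between 0.0525 and 0.245 CPM, on 1 to 5 counts each.

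In the myotube-enriched fraction at 120 h, the values turn on the 2 libraries that went against their labels, and the myoblast-enriched comparison does not use them. *Alox5* read 16.6, 17.7 and 18.6 CPM in the myoblast-enriched vehicle libraries and 3.71 and 4.34 with dox. In the myotube-enriched fraction the vehicle libraries labelled 1, 2 and 3 read 65.5, 15.4 and 89.9 CPM and the dox libraries 16.5, 81.6 and 6.75. The difference there was -0.68 ± 0.89 with all libraries and -2.70 without both libraries labelled 2. *Akr1b7* read 1.06, 8.70 and 4.69 CPM in the myoblast-enriched vehicle libraries and 5.26, 0.917 and 22.1 in the myotube-enriched ones, all below the 70.7 to 77.1 of the whole cultures at 120 h. With dox it read 0.576, 35.9 and 0.741 in the myotube-enriched fraction, and the sign turned from 0.41 to -4.32 without both libraries labelled 2. *Ptgs2* was lower with dox in the myoblast-enriched fraction, at 7.51 and 9.65 CPM against 17.1, 24.3 and 29.6 (-1.45 ± 0.26, adjusted p = 0.033), the 1 member called of 7, against 1.82% of genes lower and 3.03% in either direction. That call was lost without vehicle replicate 3 (adjusted p = 0.12). Without dox replicate 2 (-1.29, adjusted p = 0.23) or dox replicate 3 (-1.64, adjusted p = 0.093) the dox group is 1 library, assumed to vary like the vehicle libraries. With all libraries, 1 fit over all groups did not make the call (adjusted p = 0.091), and with the replicate number as a block it was kept and *Pla2g4a* was called too (-1.07, adjusted p = 0.0015). In the myotube-enriched fraction *Ptgs2* read 32.6, 8.69 and 19.0 CPM against 3.71, 32.0 and 13.6 (-0.27 ± 0.72, adjusted p = 1), and -1.54 without both libraries labelled 2 (adjusted p = 0.55). There 0 of 7 members and 0.00% of genes were called by edgeR, with 79 genes at an unadjusted p under 0.05, and DESeq2 called 0 members. Between the fractions 0 of 7 members were called with vehicle, against 0.585% of genes, or with dox, against 0.00%.

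**Figure D4:**
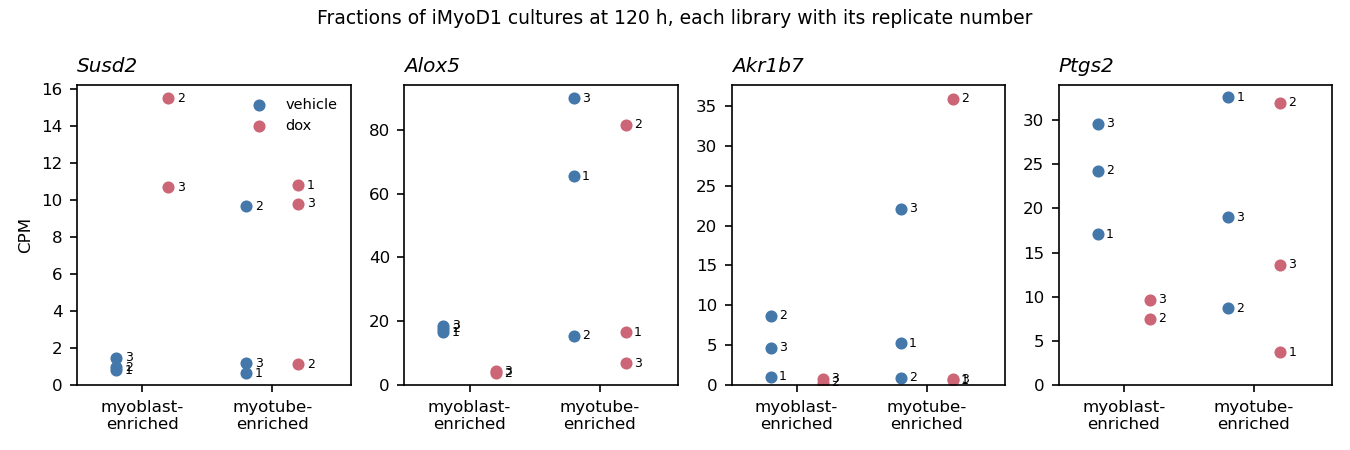
CPM of *Susd2*, *Alox5*, *Akr1b7* and *Ptgs2* in each library of the 2 fractions at 120 h, labelled with its replicate number. In the myotube-enriched fraction the vehicle library numbered 2 (*Alox5* 15.4 CPM) lies among the dox libraries and the dox library numbered 2 (*Alox5* 81.6 CPM) among the vehicle libraries.

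The adhesion lines differed in the size of the dox difference for 3 of the 7 members tested (adjusted p under 0.05, against 10.6% of genes), 2 of them by over 2-fold. *Ptgis* fell from 114, 128 and 163 to 20.8, 20.4 and 22.2 CPM in iCdh23 (-2.68 ± 0.15, adjusted p = 9.6e-06) and from 79.0, 83.2 and 114 to 32.9, 34.4 and 38.4 CPM in iMcam (-1.35 ± 0.15, adjusted p = 5.1e-04). The dox effect in iCdh23 was lower by -1.31 ± 0.22 for *Ptgis* (interaction, adjusted p = 0.004), by -1.20 ± 0.20 for *Akr1b3* (adjusted p = 0.0034) and by -0.78 ± 0.17 for *Ptgs1* (adjusted p = 0.014), the first pair called of 7 members tested, against 6.49% of genes. *Ptgs1* was lower with dox in iCdh23, at 111, 102 and 103 CPM against 167, 168 and 174 (-0.69 ± 0.08, adjusted p = 2.9e-04), and in iMcam the groups overlapped (0.11 ± 0.15, adjusted p = 0.55). *Ptgs2* was called in both lines, but the call depended on the vehicle library labelled replicate 3. In iCdh23 it read 11.3, 14.0 and 37.7 CPM against 9.34, 9.96 and 9.13 (-1.15 ± 0.43, adjusted p = 0.046), and -0.42 without that library (adjusted p = 0.02, under 2-fold). Leaving out a dox library of iCdh23 also ended the call (adjusted p = 0.1 to 0.11), as did fitting the replicate number as a block. In iMcam it read 15.6, 19.3 and 53.6 CPM against 8.86, 8.10 and 9.67 (-1.69 ± 0.44, adjusted p = 0.015), and -0.95 without that library (adjusted p = 0.0017, under 2-fold) or -1.63 without dox replicate 2 (adjusted p = 0.056). Between the vehicle cultures of the lines 0 of 6 members were called, against 0.350% of genes, and between the dox cultures 0 of 7, against 11.4%, with 3 at an adjusted p under 0.05, against 35.5% of genes.

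Over time, 4 of 8 members were called between 0 and 24 h with vehicle, 2 higher and 2 lower, against 26.1% of genes, and 4 of 8 with dox, 1 higher and 3 lower, against 16.8%. The *Akr1b7* rise and the *Ptges* fall were among them in both. *Akr1b7* passed the low-count filter only through its 24 h libraries and *Ptges* only through its 0 h libraries, so these calls are descriptions. With dox the *Ptges* call was lost without 0 h dox replicate 2 or 3 or 24 h dox replicate 1 or 3 (adjusted p = 0.054, 0.085, 0.11 and 0.11), and DESeq2 did not make it (adjusted p = 0.087). Of the 9 members tested for a different dox effect at 24 h than at 0 h, 2 were called (*Ptgs2* and *Pla2g4a*), against 5.47% of genes. The *Pla2g4a* difference (-1.05) ended below 2-fold without 0 h dox replicate 3 (-0.99), 0 h vehicle replicate 1 (-0.98) or 24 h vehicle replicate 1 (-0.99). From 24 to 48 h, where the tables and the batch change, 5 of 6 were called with vehicle, 3 higher and 2 lower, against 30.4% of genes, and 5 of 7 with dox, 3 higher and 2 lower, against 28.8%. *Ptgis* rose 25.3-fold there with vehicle (4.66 ± 0.09, adjusted p = 5.5e-14) and *Akr1b3* 3.47-fold (1.80 ± 0.06, adjusted p = 1.8e-11), while *Ptgs2* and *Pla2g4a* fell. From 48 to 120 h 1 of 6 was called with vehicle, against 29.8% (*Pla2g4a* made it 2 without 120 h vehicle replicate 1 or 2 or 48 h vehicle replicate 2 or 3), and 2 of 7 with dox, against 36.4%, where *Ptgs2* rose (1.69 ± 0.17, adjusted p = 1.1e-06) and *Ptgis* fell by 1.75 on the log2 scale (adjusted p = 1.4e-08).

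The rest of the pathway held genes called in both directions. Of 24 genes of arachidonate release and endocannabinoid hydrolysis, 12 or 13 were tested in iMyoD1, and 2 were called higher and 0 lower of 13 at 24 h, against 8.02% of all genes called higher. One was *Pla2g16*, a phospholipase (46.2 ± 1.30 against 18.0 ± 1.71 CPM, SD, n = 3; 1.33 ± 0.07 SE, adjusted p = 1.6e-08). At 120 h 1 was called higher and 2 lower of 12, against 16.1% of genes in either direction. *Dagla*, which makes the endocannabinoid 2-arachidonoylglycerol, was lower there (11.8 against 33.9 CPM, -1.53 ± 0.27, adjusted p = 0.0016). In iCdh23 3 were called higher and 1 lower of 11, against 13.0% of genes higher and 17.0% lower. The higher ones were *Faah*, an endocannabinoid hydrolase (2.10 against 0.258 CPM, 3.00 ± 0.26, adjusted p = 5.9e-05), *Pla2g4b* (5.86 against 2.49 CPM) and *Daglb* (34.2 against 16.7 CPM), and the lower one was *Anxa1*, a phospholipase A2 inhibitor (93.2 against 353 CPM, -1.93 ± 0.16, adjusted p = 4.1e-05). Among prostanoid receptors and transporters, 0 were called higher and 2 lower of 6 at 24 h, against 5.13% of genes called lower, namely the prostaglandin F receptor *Ptgfr* (3.03 against 6.98 CPM, -1.22 ± 0.13, adjusted p = 7.1e-06) and the prostaglandin exporter *Abcc4* (64.4 against 137 CPM, -1.12 ± 0.07, adjusted p = 1.0e-07). *Abcc4* was higher with dox at 48 h (16.8 against 8.15 CPM, 1.03 ± 0.10, adjusted p = 1.2e-05) and in iCdh23 and iMcam. In iCdh23 2 were called higher and 4 lower of 6, against 30.0% of genes in either direction, with *Ptgfr* at 2.87 against 40.1 CPM (-3.79 ± 0.35, adjusted p = 7.3e-05). Of the other prostanoid enzymes, 0 were called higher and 1 lower of 8 at 0 h, against 4.27% of genes in either direction, 2 higher and 0 lower of 10 at 120 h, against 16.1%, and 0 higher and 2 lower of 9 in iCdh23, against 30.0%. *Hpgd*, which breaks prostaglandins down, was called higher at 120 h (1.20 against 0.143 CPM) and lower at 0 h (0.692 against 1.88 CPM) and in iCdh23 (0.312 against 3.90 CPM).

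Among other lipoxygenases and leukotriene genes, at 24 h 4 were called higher and 0 lower of 9 tested, against 8.02% of genes higher, and in iCdh23 6 higher and 2 lower of 14, against 13.0% higher and 17.0% lower. At 0 h 2 were called higher and 0 lower of 11, against 4.27% of genes in either direction. The counts were 1 higher and 0 lower of 10 at 48 h, against 14.4%, and 3 higher and 1 lower of 11 at 120 h, against 16.1%. *Alox12* (12-lipoxygenase) read 4.07 with dox against 1.13 CPM at 24 h (1.81 ± 0.22, adjusted p = 1.8e-05). *Alox5ap*, which presents arachidonic acid to 5-lipoxygenase, read 6.40 against 2.58 CPM (1.29 ± 0.13, adjusted p = 3.7e-06), and *Cotl1*, a 5-lipoxygenase-binding protein, 31.3 against 10.8 CPM (1.51 ± 0.08, adjusted p = 1.6e-08). In iMcam 4 were called higher and 1 lower of 13, against 16.8% of genes in either direction. *Ltc4s*, the leukotriene C4 synthase, was the lower one in iMcam (2.34 against 7.92 CPM, -1.72 ± 0.20, adjusted p = 6.5e-04) and was also called lower in iCdh23. Of the other aldo-keto reductases and polyol genes, 1 of 9 was called at 24 h, near the 13.1% of all genes, the fructose kinase *Khk* (12.4 against 3.21 CPM, 1.92 ± 0.13, adjusted p = 1.0e-07). *Khk* was also the 1 called of 8 at 48 h, near the 14.4% of all genes (38.6 against 9.53 CPM, 1.99 ± 0.13, adjusted p = 4.4e-07), and it was called higher in iCdh23, iMcam and the myoblast-enriched fraction. The steroid reductase *Akr1c14* was the 1 called of 8 at 120 h, against 16.1% of genes (15.4 with dox against 3.00 CPM, 2.35 ± 0.25, adjusted p = 9.7e-05). In iCdh23 2 of 8 were called higher, *Khk* (44.2 against 10.2 CPM) and *Akr7a5* (63.0 against 27.3 CPM), and *Akr1c14* was called lower (1.47 against 6.70 CPM), against 30.0% of genes in either direction.

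Across the 16 group means of log2(CPM + 1), which share lines and tables, genes among those most like *Alox5* of 12085 were *Rhobtb2* (Pearson r = 0.946), *Depp1*, *Map3k7cl* and *Cacna2d2* (0.926). Those most like *Akr1b7* were *Itgb2* (0.974), *Nfe2l1*, *Glrp1*, *Prg4* and *P2rx3* (0.919), and those most like *Ptgs2* were *Noc3l* (0.944), *Eif3a*, *Zfp52*, *Rap2c* and *Wdr3* (0.917). Among the members, *Ptgis* was nearest to *Alox5* (0.863) and *Pla2g4a* nearest to *Ptgs2* (0.848). With Spearman's rho 1 gene of each 5 stayed among the first 5. These values are descriptions over 16 points and carry no p.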

How the data were processed

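Polyadenylated RNA of 47 libraries was sequenced. The authors quantified the reads with salmon in nf-core/rnaseq and deposited 3 tables of estimated counts per transcript, labelled mm10 in the submitters' processing notes. The deposited estimated counts were summed per gene and rounded. Symbols were found for 98.77% of gene IDs, and GENCODE vM21 matched 98.72% of transcripts. Totals ranged from 15066338 to 50950674 (median 22837926), no pair of replicate libraries agreed within sampling noise, and floors cover counting error only.

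Each comparison used its own groups in edgeR 4.0.16 (R 4.3.3) with filterByExpr, TMM factors and the quasi-likelihood test, as ~ condition. P-values were adjusted by Benjamini-Hochberg over all genes tested, and a call needed an adjusted p under 0.05 and over 2-fold. SE is the log2 fold change divided by the root of F. TPM used annotated transcript lengths. The scripts were tested on simulated data. The members, lists and rule for naming genes (the members, up to 3 called genes per list and comparison with the largest change, and the 5 genes most like *Alox5*, *Akr1b7* and *Ptgs2*) were chosen with earlier results of these data known. Of the genes most like *Alox5*, 1 is not reported here. Tests of *Alox5* in iCdh23 and iMcam, planned at first, were withdrawn because the rule that chose it names no line. Same-numbered libraries deviated together in every pair (residual correlation over 0.1) for iMcam dox (0.362, 0.227 and 0.419) and for the vehicle fractions (0.413, 0.117 and 0.189), and not elsewhere where 3 pairs existed. Between iCdh23 and iMcam with vehicle the pairs read 0.467, 0.097 and 0.48. Where 2 pairs existed, they read 0.431 and 0.3 for dox against vehicle in the myoblast-enriched fraction. Between the fractions with dox they read -0.208 and 0.42. Alternatives were DESeq2 1.42.0, RLE or plain CPM scaling, no filter, 1 fit over all groups, the replicate block, each library left out, and *Akr1b7*, *Akr1b8* and *Akr1b10* summed.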

Additional observations from a re-analysis of the deposited data

Results flagged for a closer look

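For 7 values the dox effect differed between 2 settings at an adjusted p under 0.05, by a test of the difference itself (edgeR interaction, log2). They were 4 of 9 members tested at 24 h compared with 0 h, against 34.1% of all genes at that threshold. In iCdh23 compared with iMcam they were 3 of 7, against 10.6%. At 24 h compared with 0 h in iMyoD1 the effect was lower for *Ptgs1* (-0.58, adjusted p = 2.5e-05), *Ptgs2* (-2.88, adjusted p = 1.4e-10), *Pla2g4a* (-1.05, adjusted p = 2.9e-06) and *Akr1b3* (-0.82, adjusted p = 4.0e-06). In iCdh23 compared with iMcam it was lower for *Ptgs1* (-0.78, adjusted p = 0.014), *Ptgis* (-1.31, adjusted p = 0.004) and *Akr1b3* (-1.20, adjusted p = 0.0034). Without the vehicle libraries numbered 3 of both lines these 3 were -0.65 (adjusted p = 0.019), -1.34 (2.2e-04) and -1.32 (0.0025).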

How the results depend on the processing

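Of 250 alternative counts of members called, 232 stayed within 1.5 times the count reported. At 48 h with MyoD1 induced, DESeq2 called 1 member in place of 2, and leaving out 1 library gave 1 to 2. In the myoblast-enriched fraction, 1 fit over all groups called 0, the replicate block 2, and leaving out 1 library 0 to 1, in place of 1. From 48 to 120 h with vehicle, leaving out 1 library gave 1 to 2 in place of 1. For the dox effect at 24 h minus 0 h, 1 fit over all groups called 1, RLE normalization called 1, DESeq2 called 1, and leaving out 1 library gave 1 to 2, in place of 2, with *Pla2g4a* lost (-1.02 at an adjusted p of 0.11 in the first and -0.99, under 2-fold, in the second). The replicate block also ended the *Ptgs2* call in iCdh23 (-0.95, adjusted p = 0.056), and it changed no other count of calls. With Spearman's rho, 1 of the 5 genes most like *Alox5*, 1 like *Akr1b7* and 1 like *Ptgs2* remained.

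Some signs turned with the 2 myotube-enriched libraries numbered 2, and others elsewhere. For *Akr1b7* with dox in that fraction, the block gave -2.11, both libraries out -4.32, and 1 library out -3.78 to 2.02, against 0.41, and *Ptgs2* with 1 library out ranged from -1.18 to 0.24. For the dox effect in the myoblast-enriched minus the myotube-enriched fraction, leaving both out gave 0.62 for *Alox5*, 0.10 for *Ptgs2* and 1.23 for *Akr1b7*, against -1.42, -1.17 and -3.51, and 1 library out gave -1.92 to 0.17 for *Alox5* and -5.14 to 0.69 for *Akr1b7*. *Akr1b7* between the vehicle fractions ranged from -0.64 to 1.70 with 1 library out, and with dox at 24 h from -0.12 to 0.03. For *Alox5* between iCdh23 and iMcam with vehicle, the block gave 0.02 and leaving out both vehicle libraries numbered 3 gave 0.06, against -0.02, with -0.54 to 0.58 when 1 library was left out. With 1 library out, *Alox5* between these lines with dox ranged from -0.34 to 0.10, and the difference of the lines' dox effects from -0.73 to 0.40 for *Alox5* and from -0.20 to 1.31 for *Ptgs2*. Summing *Akr1b7* with *Akr1b8* and *Akr1b10* gave, where *Akr1b7* alone had the other sign, 0.22 for dox at 24 h, -0.03 for dox in the myotube-enriched fraction, -0.28 from 0 to 24 h and 1.26 from 24 to 48 h with vehicle, -0.18 and 0.73 for the same steps with dox, and 0.05 for the dox effect at 24 h minus 0 h, and 0.42 from 48 to 120 h with vehicle where *Akr1b8* fell, since the more abundant gene sets a sum. Plain CPM moved all genes by -0.01 to 0.33 (log2) toward dox. It turned the sign for *Ptgis* with dox at 0 and 24 h, *Akr1b7* at 24 h and *Akr1b3* in the myoblast-enriched fraction. Some called members were under 2-fold on its means. *Pla2g4a* at 24 h read 32.1 with dox against 60.5. In iCdh23 *Pla2g4a* read 13.2 against 25.5, *Akr1b8* 56.7 against 91.9 and *Ptgs2* 11.6 against 20.2. No test was run on plain CPM. The cause of the other changes was not tested. Counts of 0 to 1 a library limit *Akr1b7* at 0 h, and 2 to 18 limit *Alox5* at 0 and 24 h.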

Other observations

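*Ptgis* counts were split between 2 main transcripts. The shorter, ENSMUST00000088041 (1711 bases), took 0 to 1.471% of the estimated counts in the iMyoD1 whole cultures at 48 and 120 h, and 25.27% and 31.53% at 0 h with vehicle and dox. In iCdh23 and iMcam at 48 h it took 20.16% to 25.08%. Those whole cultures lie in a deposited table of their own.

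Vehicle *Akr1b7* at 120 h was 73.8 CPM on average in whole cultures, 4.82 in the myoblast-enriched and 9.44 in the myotube-enriched fraction, which lie in another table. *Itgb2*, the gene most like *Akr1b7* over the groups, is on the leukocyte list, whose defining members *Ptprc* and *Cd3e* were at or near 0.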
